A study of Mus musculus with 81 samples.

Results

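The step from day 3 to day 5 of macrophage culture was followed in bone marrow cells of mice made to lose histone H3.3, in 6 of the 81 RNA-seq libraries of the study. The members were chosen by the labels alone, as the cKO libraries of the time course titled day 3 (3 libraries) and day 5 (3 libraries). The cKO mice were fl/fl at H3f3a and at H3f3b and carried LysM cre/cre, so that cre sits in both copies of the myeloid gene Lyz2 and removes the floxed parts of the H3.3 genes once that promoter is active. The 6 WT libraries of the same days, used beside them, came from mice that carry both floxed genes but no cre, so that loss of H3.3 and loss of Lyz2 cannot be told apart. The mice were C57BL/6, 8 to 10 weeks old and of both sexes, and the study's methods give no age or sex for a single library. Marrow from femurs and tibias was depleted of red cells by lysis and grown with L929-conditioned medium, a source of M-CSF, and the labels call the cells of these days BMDM progenitors. The methods name no sort before RNA isolation, so that a library may hold any cell of the dish, including cells in which cre had not yet acted.

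Bone marrow that is put into M-CSF holds stem cells, committed myeloid progenitors, granulocyte precursors, B cell precursors and megakaryocytes. Cells that answer M-CSF through its receptor, Csf1r, divide and mature into bone marrow-derived macrophages (BMDMs), whereas most others stop dividing, die or are washed away. H3.3 is the H3 variant that is made throughout the cell cycle and placed in chromatin independently of replication, and the canonical H3 proteins are made in S phase from clustered genes. Interferon-stimulated genes, which answer type I interferon, are active at a basal level in resting macrophages.

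Each of the 6 cKO libraries had between 15794452 and 19316661 counts on genes, and no pair of replicates was so alike that it could be a single library deposited under both names. Levels are given as CPM (counts in each 1000000 counts on genes, with TMM scaling between libraries), and changes as the log2 fold change of day 5 over day 3, with ± for its SE in the fit. The macrophage receptor Csf1r stood at 1206, 1130.4 and 1118 CPM on day 3 and 1487, 1565 and 1666 CPM on day 5, and Adgre1, which encodes F4/80, at 1355, 1016 and 1032 CPM on day 3 and 1449, 738 and 782 CPM on day 5, so that defining genes of the labelled cells were present in all 6 libraries. Of 15 T and NK cell markers, 3 (Ncr1, Gzma and Eomes) had 0 counts in all 6 libraries and 1, the kinase Lck, had enough counts to be tested (log2 fold change -0.32, adjusted p 0.779). The remaining markers had reads but too few to be tested, at most 70 counts in all for Klrk1.

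Replicate 1 of cKO day 5 stood apart from the other replicates of its group. The counts of cKO day 5 replicate 1 differed from those of replicates 2 and 3 with a chi-square of 48.2 and 38.9 per degree of freedom, against 5.09 between replicates 2 and 3. WT day 5 replicate 1 also differed from its replicates 2 and 3 (32.4 and 36.3, against 3.33). So did cKO day 7 replicate 1 (40.4 and 46.6, against 3.70). Among the cKO day 3 libraries the values were 13.8 (replicates 1 and 2), 34.6 (1 and 3) and 24.5 (2 and 3). Without cKO day 5 replicate 1, 620 genes of the main table were lower and 379 higher on day 5, and the left-out library lay between the day 3 mean and the mean of the other day 5 libraries for 500 and 333 of them. Its median position was 47.9% of the way from day 3 to the others for the lower genes and 50.8% for the higher ones. The genes were chosen by the difference of replicates 2 and 3 from day 3. That choice by itself favours a position of replicate 1 nearer to day 3, by an amount that was not tested. The plot of its differences against those of replicates 2 and 3 shows both groups of genes. The number of genes called is therefore given with and without this library.

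**Figure D1:**
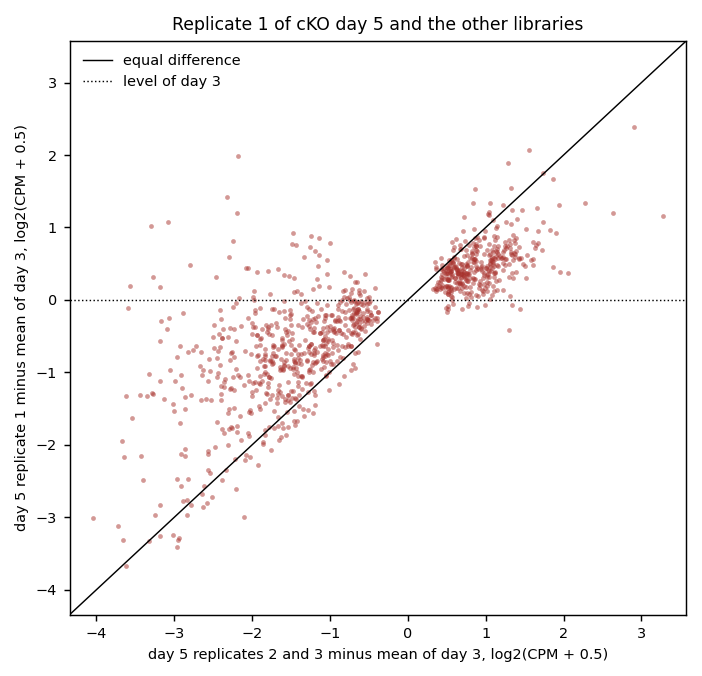
Difference of cKO day 5 replicate 1 from the mean of the 3 cKO day 3 libraries (vertical axis, log2(CPM + 0.5)) against the same difference for the mean of cKO day 5 replicates 2 and 3 (horizontal axis), with 1 point for each of the genes called in the fit without replicate 1. The horizontal positions share the libraries that chose the genes, which by itself favours points nearer to the dotted line (the level of day 3). The points lie mostly between the dotted line and the solid line (equal difference), with median positions of 47.9% and 50.8%.

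Between day 3 and day 5, 573 of 15955 genes tested changed in cKO cells (adjusted p under 0.05 in edgeR's quasi-likelihood test), which is 3.59% of genes. Of these, 215 rose (1.35%) and 358 fell (2.24%). The falls were larger, with a median log2 fold change of -1.94 against 0.81 for the rises, and 298 of the falls and 76 of the rises were at least 2-fold in size (a log2 fold change of 1). Without cKO day 5 replicate 1, 381 genes rose (2.33%) and 635 fell (3.88%). Leaving out other libraries moved the number as well, to 144, 146 and 412 genes without cKO day 3 replicates 1, 2 and 3 and to 49 and 60 without cKO day 5 replicates 2 and 3. In a fit of the 6 cKO libraries alone, 609 genes rose and 582 fell. All 573 genes kept their direction in the 6 fits that left out 1 cKO library, and 43 were called in each of them. In all, 2371 genes (14.9%) had every day 5 library above every day 3 library and 2423 (15.2%) had every one below, which included all but 1 of the rises and all but 1 of the falls. Nothing in the labels ties a replicate to its own mouse beyond the words for a biological replicate. The p-values of the main fit rest on the spread between replicate libraries, estimated over all 18 libraries of the time course.

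**Figure D2:**
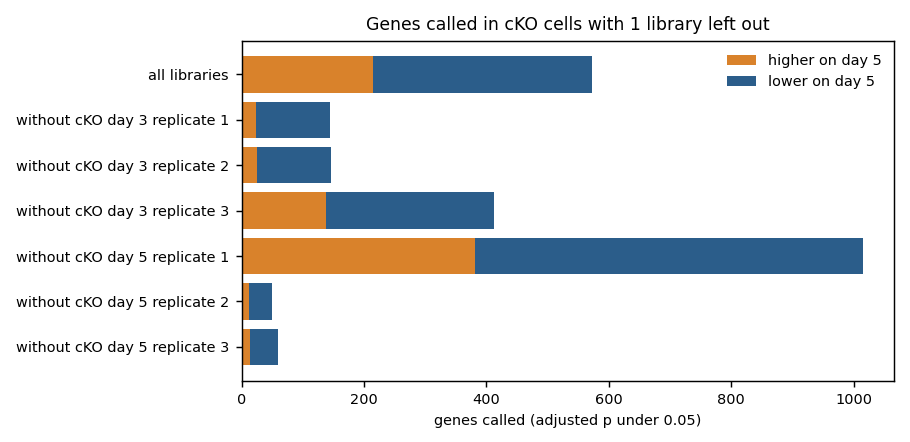
Genes called (adjusted p under 0.05) in cKO cells between day 3 and day 5 with all libraries and with each cKO library left out, split into genes higher and lower on day 5. The bars run from 49 genes without cKO day 5 replicate 2 to 1016 without cKO day 5 replicate 1.

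The targeted genes were read first. H3f3a (chr1:180800832-180813943, GRCm38), which with H3f3b encodes H3.3, had 15.3, 15.2 and 14.5 CPM on day 3 and 8.94, 9.96 and 8.96 CPM on day 5. The day 5 libraries were all below those of day 3, and H3f3a fell further within cKO cells (log2 fold change -0.69 ± 0.157, adjusted p 0.0259). In 4 of the 6 fits that left out a cKO library the call was lost, and its adjusted p reached 0.113 when cKO day 5 replicate 3 was left out. In WT cells it had 59.4, 49.2 and 56.2 CPM on day 3 and 45.97, 47.2 and 48.1 CPM on day 5. H3f3b (chr11:116021912-116027962) had 175, 222 and 208 CPM on day 3 and 206, 160 and 149 CPM on day 5 in cKO cells (log2 fold change -0.23 ± 0.159, adjusted p 0.482), and the groups overlapped. In WT cells it had 249, 231 and 222 CPM on day 3 and 199, 231 and 224 CPM on day 5, and cKO and WT libraries overlapped on both days. By the study's account, lox sites flank a single exon of H3f3a but all exons of H3f3b, and the deletion of H3f3b varied between cKO samples. Library by library, the H3f3b counts do not set the libraries labelled cKO apart from WT libraries, whereas those of H3f3a do. The mean of H3f3b was nevertheless lower in cKO than in WT cells. It was 202 against 234 CPM on day 3 and 172 against 218 CPM on day 5, and this difference was not tested. By PCR and western blot, the study reports loss of both targeted genes and of their protein in BMDMs. Lyz2, the lysozyme gene that carries cre, had 19.4, 6.77 and 9.72 CPM on day 3 and 7.17, 6.23 and 8.27 CPM on day 5 in cKO cells, against 13166, 8636 and 10217 CPM in WT cells on day 3. Its change in cKO cells was not called (log2 fold change -0.73 ± 0.427, adjusted p 0.399). Over all genes, 0 of the 18 genes of a list of H3.3 and other histone chaperones were called in edgeR, and their median log2 fold change was 0.17 (2 at an unadjusted p under 0.05, 0 called in DESeq2). Dek, an H3.3 chaperone, had 87.8, 84.7 and 91.3 CPM on day 3 and 107, 134 and 134 CPM on day 5 (log2 fold change 0.51, adjusted p 0.105), and Atrx, which deposits H3.3 at repeats together with Daxx, had a log2 fold change of 0.25 (adjusted p 0.313). Ubn1, of the HIRA complex, had one of -0.27 (adjusted p 0.334).

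The 10 largest falls among well expressed genes (a mean log2 CPM of at least 3 over the 6 libraries) included genes known from other cells than macrophages. Of these, Ppbp and Itga2b belong to megakaryocytes and platelets, Prg2 to eosinophils, and Camp to neutrophil granules. Itgb3, also among the 10, encodes the platelet partner of Itga2b but is listed here with adhesion molecules and not with platelet markers. In bulk RNA, fewer cells of a type and less RNA per cell cannot be told apart. Sstr5, a somatostatin receptor (chr17:25489875-25497288), had 10.4, 23.8 and 22.6 CPM on day 3 and 1.78, 0.4905 and 0.747 CPM on day 5 and the largest fall of the 10 (log2 fold change -4.25 ± 0.546, adjusted p 0.00124). It was called in each of the 6 fits without a cKO library. WT cells held almost none of its RNA, 0.136, 0 and 0.112 CPM on day 3. The coagulation factor gene F10 had 68.3, 53.8 and 46.3 CPM on day 3 and 12.02, 4.41 and 4.996 CPM on day 5 (log2 fold change -2.98 ± 0.382, adjusted p 0.00124), and it too was called in all 6 of those fits.

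A further 3 of the 10 are genes of inflammation, cystine uptake and signaling. Il1b, the inflammatory cytokine interleukin-1β, had 59.1, 5.27 and 4.03 CPM on day 3 and 3.26, 0.589 and 0.402 CPM on day 5 (log2 fold change -4.02 ± 0.9904, adjusted p 0.0358), and day 3 replicate 1 was far above the other libraries. Its adjusted p reached 0.337 when cKO day 3 replicate 1 was left out. Slc7a11, the cystine transporter, had 165, 159 and 142 CPM on day 3 and 25.6, 25.9 and 15.8 CPM on day 5 (log2 fold change -2.79 ± 0.599, adjusted p 0.0197), and the groups were far apart. Ptpn14, a tyrosine phosphatase, had 24.4, 23.5 and 20.1 CPM on day 3 and 4.68, 3.19 and 2.24 CPM on day 5 (log2 fold change -2.75 ± 0.469, adjusted p 0.00718). The calls of Slc7a11 and Ptpn14 were lost in 4 and 2 of the 6 fits, with adjusted p values of up to 0.124 and 0.0616, both when cKO day 5 replicate 3 was left out.

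The largest rise was that of Cx3cr1, the fractalkine receptor of monocytes and macrophages (chr9:119901616-120069879). It had 28.9, 26.9 and 31.7 CPM on day 3 and 65.6, 284 and 289.8 CPM on day 5 (log2 fold change 2.87 ± 0.515, adjusted p 0.00919). All day 5 libraries were above those of day 3, with replicate 1 well below the other 2 day 5 libraries, and without it the log2 fold change was 3.31 (adjusted p 0.00105). Cspg4, the proteoglycan NG2, had 2.89, 5.27 and 5.38 CPM on day 3 and 24.9, 39.97 and 32.4 CPM on day 5 (log2 fold change 2.84 ± 0.5603, adjusted p 0.0149). Nes, the intermediate filament nestin, had 14.5, 17.99 and 18.1 CPM on day 3 and 54.5, 58.7 and 65.98 CPM on day 5 (log2 fold change 1.83 ± 0.437, adjusted p 0.0325). For both, the day 5 libraries were well above those of day 3.

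Another 3 of the 10 largest rises encode secreted or membrane-bound ligands and matrix. Tnfsf8, the CD30 ligand, had 4.21, 6.36 and 9.83 CPM on day 3 and 28.7, 16.4 and 24.2 CPM on day 5 (log2 fold change 1.76, adjusted p 0.0235). Kitl, which encodes stem cell factor, had 8.42, 10.7 and 16.8 CPM on day 3 and 44.1, 25.3 and 32.7 CPM on day 5 (log2 fold change 1.5, adjusted p 0.0238). The basement membrane collagen Col4a2 had 4.27, 7.59 and 5.96 CPM on day 3 and 7.76, 23.4 and 24.3 CPM on day 5 (log2 fold change 1.64, adjusted p 0.0362), and for this gene day 5 replicate 1 lay near day 3. Car5b, a mitochondrial carbonic anhydrase on the X chromosome (chrX:163976822-164027997), had 4.78, 4.04 and 5.65 CPM on day 3 and 12.3, 16.5 and 15.96 CPM on day 5 (log2 fold change 1.62 ± 0.253, adjusted p 0.00438), and was the 1 gene of the 10 that was called in all 6 fits without a cKO library. The other 9 lost their call in 2 to 5 of those fits, each of them both without cKO day 5 replicate 2 and without replicate 3, and the highest adjusted p was 0.192 (Aspm, when cKO day 5 replicate 3 was left out). Hist1h4n, mt-Nd2 and Aspm complete the 10 and are described with their groups.

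**Figure D3:**
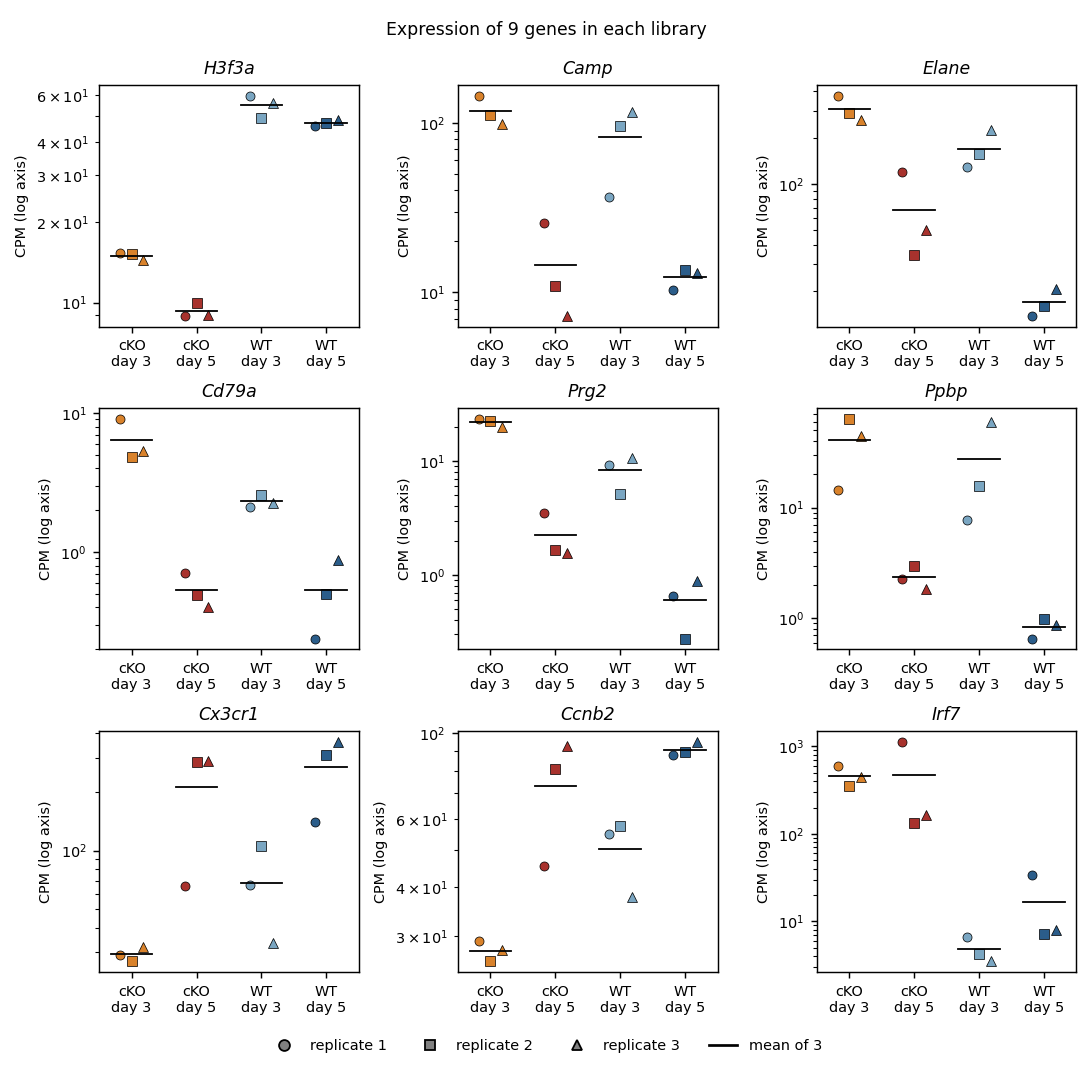
CPM of 9 genes in each library of cKO and WT cells on days 3 and 5 (points by replicate, line for the mean of 3, log axes with a separate range for each gene). Every cKO day 5 library is below every cKO day 3 library for H3f3a, Camp, Elane, Cd79a, Prg2 and Ppbp and above for Cx3cr1 and Ccnb2, whereas the day 5 values of Irf7 lie on both sides of those of day 3, with replicate 1 at 1126 CPM.

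Genes of neutrophil granules were lower on day 5. Of 26 tested genes of a list of granule proteins and their regulators, 14 fell and 0 rose, beside 2.24% of all genes that fell, and the median log2 fold change was -1.90 against -0.02 over all genes. All 3 day 5 libraries were below all 3 day 3 libraries for 22 of the 26, as for 15.2% of all genes. Summed over the list, the level was 5879.5, 3933 and 3806 CPM on day 3 and 2488, 939 and 827 CPM on day 5, where replicate 1 was above the others.

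Camp, the antimicrobial peptide cathelicidin (chr9:109847379-109849617), had 144, 112 and 98.6 CPM on day 3 and 25.6, 10.8 and 7.29 CPM on day 5 (log2 fold change -3.02 ± 0.512, adjusted p 0.00674). Elane, neutrophil elastase (chr10:79886247-79888215), had 372, 289.8 and 259 CPM on day 3 and 120, 34.3 and 49.8 CPM on day 5 (log2 fold change -2.18 ± 0.443, adjusted p 0.0168). Both were lower in every day 5 library, with replicate 1 nearest to day 3. Ctsg, the granule protease cathepsin G, had 137, 86.7 and 84.2 CPM on day 3 and 42.6, 10.9 and 15.3 CPM on day 5 (log2 fold change -2.16 ± 0.407, adjusted p 0.0118). Gfi1, a repressor needed for neutrophil development, had 18.1, 21.8 and 17.04 CPM on day 3 and 6.34, 2.06 and 2.297 CPM on day 5 (log2 fold change -2.42 ± 0.474, adjusted p 0.0144). Mpo, myeloperoxidase, had 401, 300.1 and 291 CPM on day 3 and 151, 44.9 and 66.6 CPM on day 5 (log2 fold change -1.92 ± 0.464, adjusted p 0.0337). Without cKO day 5 replicate 1, its log2 fold change was -2.55 (adjusted p 0.00746). The falls of the list depended on single libraries: 2, 3 and 11 without cKO day 3 replicates 1, 2 and 3, and 23, 0 and 0 without cKO day 5 replicates 1, 2 and 3. The median of the list remained between -2.60 and -1.56 in these fits.

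Markers of B cells, of mast cells, basophils and eosinophils, of megakaryocytes and of erythroid cells included genes that fell. Of 10 tested B cell markers (15 listed), 8 fell, beside 2.24% of all genes, with a median log2 fold change of -3.99. Summed over the 15 genes, B cell markers made up 87.6 to 144 CPM on day 3 and 25.1 to 49.98 CPM on day 5. Cd79a, a chain of the B cell receptor, had 9.05, 4.86 and 5.33 CPM on day 3 and 0.711, 0.4905 and 0.402 CPM on day 5 (log2 fold change -3.57 ± 0.3905, adjusted p 0.000395). The kinase Blk had 135 counts in all on day 3 and 4 on day 5 (log2 fold change -5.09, adjusted p 0.00037), and Ebf1, a factor that commits cells to the B lineage, had 181 and 9 (log2 fold change -4.40, adjusted p 0.00117). These 3 genes were called in all 6 fits without a cKO library, and the number of B cell markers that fell was 7, 9 and 8 without cKO day 3 replicates 1, 2 and 3, and 9, 6 and 7 without cKO day 5 replicates 1, 2 and 3.

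Of 9 tested markers of mast cells, basophils and eosinophils (14 listed), 6 fell (median log2 fold change -3.29), beside 2.24% of all genes. The sum of the list was 56.9 to 101 CPM on day 3 and 6.03 to 31.4 CPM on day 5. Prg2, the eosinophil major basic protein, had 23.4, 22.6 and 19.8 CPM on day 3 and 3.49, 1.67 and 1.55 CPM on day 5 (log2 fold change -3.29 ± 0.389, adjusted p 0.000741). Epx, eosinophil peroxidase, had 3.77, 3.42 and 3.71 CPM on day 3 and 0.237, 0.294 and 0.287 CPM on day 5 (log2 fold change -3.70, adjusted p 0.00166). The basophil protease Mcpt8 had 4.400, 3.15 and 3.08 CPM on day 3 and 0.415, 0.245 and 0.115 CPM on day 5 (log2 fold change -3.75, adjusted p 0.00134). These 3 were called in all 6 fits without a cKO library. Prss34, a basophil and mast cell protease, had a log2 fold change of -3.50 (adjusted p 0.0143), and its call was lost in 3 of those fits (adjusted p up to 0.0894 when cKO day 5 replicate 3 was left out). The number that fell was 4, 4 and 6 without cKO day 3 replicates 1, 2 and 3, and 8, 3 and 3 without cKO day 5 replicates 1, 2 and 3.

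Megakaryocyte and platelet markers fell for 6 of 9 tested genes (10 listed, median -3.34), beside 2.24% of all genes. Ppbp, a platelet chemokine, had 14.4, 63.3 and 44.9 CPM on day 3 and 2.25, 2.99 and 1.84 CPM on day 5 (log2 fold change -4.10 ± 0.692, adjusted p 0.00654). Itga2b, the platelet integrin αIIb, had 26.7, 85.4 and 39.8 CPM on day 3 and 4.15, 5.05 and 5.8 CPM on day 5 (log2 fold change -3.34 ± 0.605, adjusted p 0.00965). Itgb3, its β3 partner, is on the adhesion list and not on this one. It had 41.6, 122 and 70.7 CPM on day 3 and 9.59, 9.47 and 10.4 CPM on day 5 (log2 fold change -2.99 ± 0.629, adjusted p 0.0177). On day 3, replicate 2 was the highest library for all 3 of these genes. Tubb1, the platelet tubulin, and Gp9, a platelet glycoprotein, had log2 fold changes of -3.92 (adjusted p 0.00975) and -4.16 (adjusted p 0.017). The number that fell was 4, 3 and 4 without cKO day 3 replicates 1, 2 and 3, and 4, 0 and 0 without cKO day 5 replicates 1, 2 and 3, with 0 calls left without replicate 2 or 3 of day 5. The sum of the list was 279.8 to 448 CPM on day 3 and 93.5 to 198 CPM on day 5. Most of the sum is Pf4, which was not called and is also on the chemokine list. Pf4 had 18292 counts in the 6 cKO libraries, against 2707 for Itga2b and 2144 for Ppbp.

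Of 8 tested erythroid markers (15 listed), 3 fell, beside 2.24% of all genes. Among them were the factor Gata1 (log2 fold change -4.08, adjusted p 0.0205) and the globin Hbb-bs (log2 fold change -4.23, adjusted p 0.0481, from 41 counts in all on day 3 and 2 on day 5). The number that fell was 0, 0 and 1 without cKO day 3 replicates 1, 2 and 3, and 2, 0 and 0 without cKO day 5 replicates 1, 2 and 3. The reads of Hbb-bs and Hba-a1 can be shared with near-identical globin copies, and their values are uncertain. None of 9 tested dendritic cell markers (3 at an unadjusted p under 0.05, 2 called in DESeq2) and none of 11 stromal and endothelial markers (1 at an unadjusted p under 0.05, 0 in DESeq2) was called. Stromal markers summed to 87.4 to 139.8 CPM on day 3 and 121 to 193 CPM on day 5, and their part in the rise of matrix genes such as Col4a2 was not tested. Postn, a matrix protein of fibroblasts, had 0.4400, 2.53 and 2.51 CPM on day 3 and 6.87, 7.75 and 12.3 CPM on day 5 (log2 fold change 2.29, adjusted p 0.133), and Col1a2, a chain of type I collagen, had 8.36, 22.7 and 12.2 CPM on day 3 and 24.3, 22.9 and 33.2 CPM on day 5 (log2 fold change 0.90, adjusted p 0.514). The matrix protein Sparc and the pericyte receptor Pdgfrb had log2 fold changes of 1.13 (adjusted p 0.359) and -0.74 (adjusted p 0.45). Among dendritic cell markers, Ccr9 had a log2 fold change of -1.44 (adjusted p 0.0537) and Ccr7 one of -1.62 (adjusted p 0.0922), while Cd24a had -0.60 (adjusted p 0.528) and Tcf4, a factor of plasmacytoid cells, 0.52 (adjusted p 0.218).

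**Figure D4:**
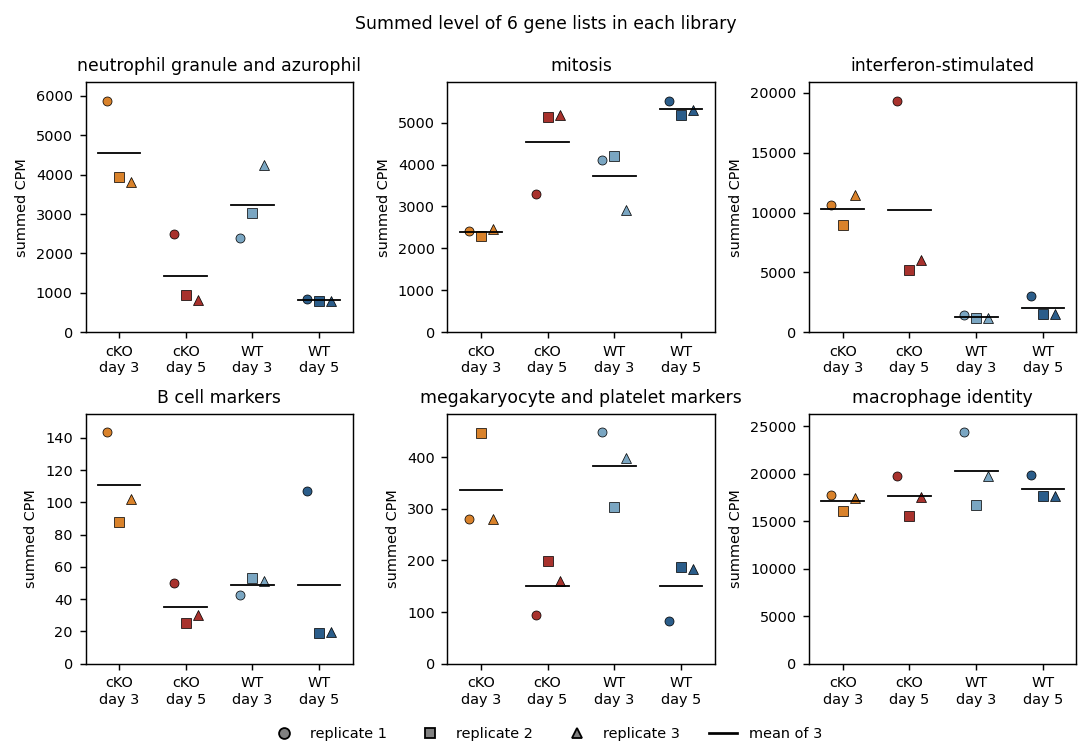
Summed CPM of 6 gene lists in each library of cKO and WT cells on days 3 and 5 (points by replicate, line for the mean of 3, axes from 0). Granule genes and B cell markers are lower in each cKO day 5 library than in each cKO day 3 library, mitosis genes are higher, and interferon-stimulated genes of cKO day 5 lie on both sides of day 3, with replicate 1 at 19364 CPM and replicates 2 and 3 at 5220 and 6071 CPM.

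Of 22 tested genes of stem and progenitor cells, 6 fell, beside 2.24% of all genes, and 0 rose, with a median log2 fold change of -0.31. Myb, a factor of proliferating progenitors, had 28.6, 22.6 and 24.9 CPM on day 3 and 10.2, 6.62 and 5.28 CPM on day 5 (log2 fold change -1.79 ± 0.314, adjusted p 0.00871). Kit, the receptor for stem cell factor, had 26.3, 21.1 and 23.3 CPM on day 3 and 11.2, 5.297 and 5.23 CPM on day 5 (log2 fold change -1.71 ± 0.4303, adjusted p 0.0396). Gata2, a factor of stem cells and mast cells, had 8.86, 5.27 and 3.92 CPM on day 3 and 1.895, 1.03 and 1.67 CPM on day 5 (log2 fold change -1.98, adjusted p 0.016). Nkg7, a granule protein that NK cells also make, had 8.74, 7.59 and 5.12 CPM on day 3 and 1.303, 0.5395 and 0.517 CPM on day 5 (log2 fold change -3.18, adjusted p 0.00134). Which cells its RNA came from was not tested. Nkg7 was the 1 member called in all 6 fits without a cKO library. Mycn had 45 counts in all on day 3 and 1 on day 5 (log2 fold change -5.21, adjusted p 0.0173), which leaves the size of its fall uncertain. Cd34, another progenitor antigen, did not pass the test and was not lower, at 20.6, 35.4 and 30.3 CPM on day 3 and 29.97, 60.4 and 52.9 CPM on day 5 (log2 fold change 0.73, adjusted p 0.669). The number that fell was 3, 4 and 4 without cKO day 3 replicates 1, 2 and 3, and 6, 1 and 1 without cKO day 5 replicates 1, 2 and 3.

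Few genes of the monocyte stage were called. Of 26 tested, 2 fell, beside 2.24% of all genes (Cd177 and Hp, which neutrophils also express). S100a4 alone rose, beside 1.35% of all genes, and the median was -0.36. Cd177, a neutrophil surface protein, had 182, 89.8 and 77.3 CPM on day 3 and 42.8, 10.5 and 9.82 CPM on day 5 (log2 fold change -2.47 ± 0.505, adjusted p 0.0169). Hp, haptoglobin, had 157, 79.2 and 76.6 CPM on day 3 and 40.2, 8.39 and 11.03 CPM on day 5 (log2 fold change -2.39 ± 0.509, adjusted p 0.0191). S100a4, a calcium-binding protein, had 4.903, 3.900 and 5.33 CPM on day 3 and 6.69, 8.49 and 11.8 CPM on day 5 (log2 fold change 0.93 ± 0.2201, adjusted p 0.0314). Ly6c2, the antigen of classical monocytes, had 458, 274 and 419.6 CPM on day 3 and 259.6, 53.8 and 95.1 CPM on day 5 (log2 fold change -1.5, adjusted p 0.102), which did not pass the test, and without cKO day 5 replicate 1 it fell (-2.35, adjusted p 0.00889). Chil3, a chitinase-like protein of monocytes, had 498, 375 and 394 CPM on day 3 and 289, 121 and 104 CPM on day 5 (log2 fold change -1.30, adjusted p 0.063, and -1.89, adjusted p 0.00683 without that library). The chemokine receptor Ccr2 had 64.8, 89.01 and 94.4 CPM on day 3 and 200.3, 154 and 165 CPM on day 5 (log2 fold change 1.07, adjusted p 0.271), every day 5 library being above those of day 3. The falls of the list were 0, 2 and 2 without cKO day 3 replicates 1, 2 and 3, and 8, 0 and 0 without cKO day 5 replicates 1, 2 and 3. Its rises were 0, 0 and 1, and 1, 0 and 0, in the same fits.

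Defining genes of macrophages were already high on day 3, and 1 of 38 tested genes of a macrophage identity list rose, Cx3cr1, beside 1.35% of all genes. The median of the list was 0.10, and its summed level was 16119 to 17802 CPM on day 3 and 15589 to 19749.5 CPM on day 5. Without cKO day 5 replicate 1, Cd163 rose as well (1.74, adjusted p 0.0454). This scavenger receptor had 4.27, 2.74 and 2.46 CPM on day 3 and 4.797, 10.7 and 10.2 CPM on day 5 (log2 fold change 1.44, adjusted p 0.108). Csf1r had a log2 fold change of 0.45 (adjusted p 0.386), with every day 5 library above those of day 3, and Mertk, a receptor for apoptotic cells, one of 0.64 (adjusted p 0.382). Cd68 (log2 fold change 0.50, adjusted p 0.173), Cd9 (log2 fold change 0.33, adjusted p 0.293), Gpnmb (log2 fold change -0.25, adjusted p 0.651), Apoe (log2 fold change 0.58, adjusted p 0.671) and Adgre1 (log2 fold change -0.20, adjusted p 0.85) did not pass the test. None of 32 macrophage transcription factors was called (5 at an unadjusted p under 0.05, 1 higher and 1 lower in DESeq2, median -0.06). The factors Klf2 (log2 fold change 0.73, adjusted p 0.0766), Tfec (log2 fold change -0.53, adjusted p 0.0844), Cebpb (log2 fold change -0.71, adjusted p 0.199), Klf4 (log2 fold change 0.35, adjusted p 0.23) and Spi1, which encodes PU.1 (log2 fold change -0.22, adjusted p 0.655), were all among them. Of 28 macrophage identity genes with a promoter in the RefSeq table, 2 (7.14%) held the PU.1 core GAGGAAGT on either strand, against 3.69% of all 27025 genes with a promoter there.

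Of 29 tested chemokine receptors and adhesion molecules, 4 rose and 1 fell, beside 1.35% and 2.24% of all genes. Cd81, a tetraspanin (chr7:143052739-143067934), had 84.9, 87.1 and 95.4 CPM on day 3 and 163, 155 and 175 CPM on day 5 (log2 fold change 0.88 ± 0.0977, adjusted p 0.000395). Its replicates were close to each other on both days, and it was called in all 6 fits without a cKO library. Itga4, the integrin α4, had 95.6, 90.5 and 109.6 CPM on day 3 and 165, 182 and 179.8 CPM on day 5 (log2 fold change 0.83 ± 0.159, adjusted p 0.0122). Itga6, the integrin α6, had 140.1, 187 and 178 CPM on day 3 and 275, 423 and 405 CPM on day 5 (log2 fold change 1.13 ± 0.234, adjusted p 0.0173). Their calls were lost in 4 of the 6 fits each, and the adjusted p reached 0.0638 when cKO day 3 replicate 2 was left out for Itga4 and 0.0935 when cKO day 5 replicate 2 was left out for Itga6. The rises of the list numbered 2, 2 and 4 without cKO day 3 replicates 1, 2 and 3, and 5, 1 and 1 without cKO day 5 replicates 1, 2 and 3. The fall was that of Itgb3.

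Among 27 tested chemokines and inflammatory cytokines, 1 rose and 2 fell, beside 1.35% and 2.24% of all genes, and the median was -0.49. Il18, an interleukin-1 family cytokine, had 3.65, 4.04 and 4.23 CPM on day 3 and 9.42, 7.01 and 6.72 CPM on day 5 (log2 fold change 0.95 ± 0.1700, adjusted p 0.00871), and was called in all 6 fits. Cxcl3, a chemokine that attracts neutrophils, had 17.5, 7.46 and 7.27 CPM on day 3 and 0.592, 1.03 and 0.574 CPM on day 5 (log2 fold change -3.85 ± 0.791, adjusted p 0.0171), with a call in 3 of the 6 fits and an adjusted p that reached 0.101 when cKO day 5 replicate 3 was left out. Il1b fell, as given above. Ccl8 had 2.45, 4.24 and 4.39 CPM on day 3 and 0.474, 0.589 and 0.632 CPM on day 5 (log2 fold change -2.69, adjusted p 0.0564) and did not pass the test, although its groups were apart.

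Lysosomal genes gave 1 call. Of 44 tested, 1 rose, beside 1.35% of all genes, 0 fell and the median was -0.09. The cathepsin gene Ctsk had 27.97, 25.8 and 26.5 CPM on day 3 and 9.95, 3.78 and 3.85 CPM on day 5 (log2 fold change -2.20, adjusted p 0.0716, and -2.79, adjusted p 0.0372 without cKO day 5 replicate 1), and the sialidase Neu1 had 196, 169 and 158 CPM on day 3 and 143, 88.3 and 100.2 CPM on day 5 (log2 fold change -0.66, adjusted p 0.0746, and -0.87, adjusted p 0.0169 without that library). Ctsd, the cathepsin D gene, had 2706, 2330.5 and 2176 CPM on day 3 and 2542, 2125 and 2358 CPM on day 5 (log2 fold change -0.04, adjusted p 0.948), and its groups overlapped. Of the lysosomal list, 34 genes had a promoter in the RefSeq table, and 7 of these (20.6%) held the CLEAR E-box TCACGTGA on either strand, against 1.12% of all 27025 genes with a promoter there.

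Of 26 tested genes of lipid uptake, storage and efflux, 3 fell, beside 2.24% of all genes. They were Dgat1, which makes triglyceride (log2 fold change -0.74, adjusted p 0.0239), the lipid droplet protein gene Hilpda (log2 fold change -1.29, adjusted p 0.0338) and the lipase Mgll (log2 fold change -1.95, adjusted p 0.0351). Hilpda had 15.2, 13.1 and 13.9 CPM on day 3 and 5.57, 5.79 and 5.86 CPM on day 5, with tight replicates on both days, but was called in none of the 6 fits without a cKO library (adjusted p up to 0.145 when cKO day 5 replicate 3 was left out). Dgat2 had 34.4, 17.4 and 13.7 CPM on day 3 and 12.02, 4.07 and 3.503 CPM on day 5 (log2 fold change -1.75, adjusted p 0.053). The falls of this list were 0, 0 and 3 without cKO day 3 replicates 1, 2 and 3, and 4, 0 and 0 without cKO day 5 replicates 1, 2 and 3. Of 18 genes of iron and heme handling, 1 fell, beside 2.24% of all genes. This was Blvrb, which encodes biliverdin reductase B, with a change from 250, 245 and 189 to 136, 115 and 114 CPM (log2 fold change -0.90, adjusted p 0.0398, called in 2 of the 6 fits, up to 0.195 when cKO day 5 replicate 3 was left out). The iron exporter Slc40a1 had 199, 256 and 222 CPM on day 3 and 105, 41.8 and 45.8 CPM on day 5 (log2 fold change -1.81, adjusted p 0.0897). The phagosomal metal transporter Slc11a1 had 662, 645 and 606 CPM on day 3 and 408, 321 and 341 CPM on day 5 (log2 fold change -0.84, adjusted p 0.0741). Hpgds, a prostaglandin synthase, had a log2 fold change of 0.66 (adjusted p 0.0795). None of the 3 passed the test, although no day 5 library of Slc40a1 or Slc11a1 reached the day 3 range. Of 24 genes of alternative activation and matrix, 1 fell, beside 2.24% of all genes. This was Mmp8, the neutrophil collagenase, which is also on the granule list, from 219, 206 and 216 to 117, 118 and 89.1 CPM (log2 fold change -0.98, adjusted p 0.0347, called in 1 of the 6 fits, up to 0.205 when cKO day 5 replicate 3 was left out). Ear2, an eosinophil-associated ribonuclease, had a log2 fold change of -1.54 (adjusted p 0.0844). Mmp9, a gelatinase, had 89.3, 22.1 and 23.2 CPM on day 3 and 27.1, 5.199 and 2.699 CPM on day 5 (log2 fold change -1.95, adjusted p 0.142, and -3.48, adjusted p 0.00977 without cKO day 5 replicate 1).

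Genes of mitosis were higher on day 5. All 40 tested members had a positive log2 fold change, with a median of 0.88, and for 38 of 40 every day 5 library was above every day 3 library, as for 14.9% of all genes. Of the 40, 7 rose and 0 fell over all genes (37 at an unadjusted p under 0.05), beside 1.35% of all genes that rose. Ccnb2, which encodes cyclin B2 (chr9:70407692-70421547), had 29.1, 25.8 and 27.5 CPM on day 3 and 45.4, 80.7 and 92.6 CPM on day 5 (log2 fold change 1.41 ± 0.283, adjusted p 0.016). Replicate 1 of day 5 was between day 3 and the other day 5 libraries. Plk1, the mitotic kinase, had 40.4, 32.1 and 35.1 CPM on day 3 and 58.1, 80.5 and 89.99 CPM on day 5 (log2 fold change 1.09 ± 0.268, adjusted p 0.0359). Nusap1, a spindle protein, had 29.9, 26.1 and 30.3 CPM on day 3 and 48.6, 69.1 and 68.7 CPM on day 5 (log2 fold change 1.11, adjusted p 0.0285). Kif20a, a kinesin of cytokinesis, had 40.3, 40.7 and 36.7 CPM on day 3 and 55.02, 82.5 and 91.6 CPM on day 5 (log2 fold change 0.96, adjusted p 0.0337). In all of these genes the 3 day 3 libraries were close together. The spindle pole gene Aspm, one of the 10 largest rises, had 28.5, 32.2 and 34.97 CPM on day 3 and 51.5, 100.3 and 112 CPM on day 5 (log2 fold change 1.46, adjusted p 0.0415). Mki67, which encodes Ki67, had 299, 286 and 366 CPM on day 3 and 436, 908 and 880.3 CPM on day 5 (log2 fold change 1.23, adjusted p 0.0778, and 1.51, adjusted p 0.0261 without cKO day 5 replicate 1). Top2a, the topoisomerase of dividing cells, had 323, 314 and 318 CPM on day 3 and 426, 611 and 603 CPM on day 5 (log2 fold change 0.78, adjusted p 0.158), and neither passed the test with all libraries. The number that rose was 0, 0 and 1 without cKO day 3 replicates 1, 2 and 3, and 21, 0 and 0 without cKO day 5 replicates 1, 2 and 3. The median stayed between 0.77 and 1.06.

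Promoters of mitotic genes are known for CCAAT boxes and for the CHR element (TTTGAA or TTTAAA), through which the DREAM complex and B-Myb act. Of the 34 mitosis genes with a promoter in the RefSeq table (250 bases before to 50 after the gene start, GRCm38.p6), 28 (82.4%) held the CHR and 26 (76.5%) held CCAAT on either strand, against 30.6% and 41.1% of all 27025 genes with a promoter there. Counted before the gene start alone, 17 of the 34 (50%) held the CHR, against 28.1% of all. Among the 7 genes that rose, 6 had a promoter in the table, of which 5 held the CHR and 3 held CCAAT. Windows of 30 bases around these letters are shown because they belong to called genes, in the direction of the gene, with the motif in capitals. Those of Ccnb2 are on chr9:70421704-70421733 and chr9:70421558-70421587 (minus strand), the Plk1 windows are on chr7:122159394-122159423 and chr7:122159405-122159434 (plus strand), that of Hmmr on chr11:40733440-40733469 and that of Kif2c on chr4:117178858-117178887 (both minus strand). In Hmmr and Kif2c the capitals are the reverse complement of the motif, and the Plk1 windows overlap, so that the CCAAT window also holds the CHR in lower case.
Ccnb2, CHR: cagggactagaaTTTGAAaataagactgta
Ccnb2, CCAAT: gcgtgcgtctacCCAATagtgcgtcagcgg
Plk1, CHR: gcgggtttgtatTTTAAAtccccgcggcca
Plk1, CCAAT: ttttaaatccccgcggCCAATcagcaacgc
Hmmr, CCAAT: ttaggttttctgATTGGctgagggggaaag
Kif2c, CHR: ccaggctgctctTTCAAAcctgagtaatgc

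Replication-coupled H3 and H4 genes, which make the canonical histones of S phase, had 3 members that rose, of 22 tested, beside 1.35% of all genes. All 22 had a positive log2 fold change (median 0.54), and for 8 of them every day 5 library was above every day 3 library, as for 14.9% of all genes. Hist1h4n had 21.9, 18.5 and 33.6 CPM on day 3 and 46.7, 73.9 and 81.4 CPM on day 5 (log2 fold change 1.44 ± 0.3003, adjusted p 0.0173). Hist1h3d had 44.3, 34.3 and 37.01 CPM on day 3 and 56.2, 114 and 117 CPM on day 5 (log2 fold change 1.31 ± 0.322, adjusted p 0.0354). Hist1h3h had a log2 fold change of 1.09 (adjusted p 0.0481), Hist1h3b one of 1.09 (adjusted p 0.0661) and Hist1h3c one of 0.47 (adjusted p 0.3). Their coding sequences are almost the same, and how the authors' counting divided reads between them is uncertain. The rises numbered 0, 0 and 1 without cKO day 3 replicates 1, 2 and 3, and 6, 0 and 0 without cKO day 5 replicates 1, 2 and 3.

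None of 48 genes of DNA replication was called (4 at an unadjusted p under 0.05, 0 in DESeq2), although 47 of them had a positive log2 fold change, with a median of 0.34. The helicase subunit Mcm5 had 166, 146 and 159 CPM on day 3 and 181, 199 and 215 CPM on day 5 (log2 fold change 0.34, adjusted p 0.729), and the sliding clamp Pcna had 304, 292 and 301 CPM on day 3 and 371, 326 and 306 CPM on day 5 (log2 fold change 0.16, adjusted p 0.875). Pole, the leading-strand polymerase, had 51.4, 51.5 and 56.6 CPM on day 3 and 75.2, 93.6 and 98.1 CPM on day 5 (log2 fold change 0.74, adjusted p 0.27). Asf1b, a histone chaperone, had 34.7, 32.6 and 36.9 CPM on day 3 and 49.98, 63.9 and 71.96 CPM on day 5 (log2 fold change 0.83, adjusted p 0.163). Both were higher in every day 5 library without passing the test. E2f2, a transcription factor of S phase genes, had a log2 fold change of 0.45 (adjusted p 0.252) and Rfc5, a clamp loader subunit, one of 0.45 (adjusted p 0.258). The difference between the mitosis and replication lists was not tested. Of the 38 replication genes with a promoter in the table, 13 (34.2%) held an E2F site (TTTCCCGC or TTTGGCGC, either strand), against 1.80% of all genes there.

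Of 46 tested nucleotide synthesis genes, 1 rose, beside 1.35% of all genes, 0 fell and the median was 0.12. Prps2, which makes the ribose donor of nucleotide synthesis, had 28.5, 21.8 and 28.1 CPM on day 3 and 42.3, 45.5 and 51.1 CPM on day 5 (log2 fold change 0.82 ± 0.1499, adjusted p 0.00965), with a call in 3 of the 6 fits and an adjusted p that reached 0.074 when cKO day 5 replicate 3 was left out. Tk1, thymidine kinase, had 41.6, 31.8 and 36.3 CPM on day 3 and 50.99, 81.9 and 93.03 CPM on day 5 (log2 fold change 1.04, adjusted p 0.0855). Paics, an enzyme of purine synthesis, had 95.4, 87.2 and 96.97 CPM on day 3 and 126, 136 and 138 CPM on day 5 (log2 fold change 0.52, adjusted p 0.0595). Both groups of day 5 libraries were above those of day 3. Uprt, a salvage enzyme, had a log2 fold change of 0.45 (adjusted p 0.0983) and Rrm2, of ribonucleotide reductase, one of 0.48 (adjusted p 0.582). Without cKO day 5 replicate 1, 4 members rose and 1 fell, beside 2.33% and 3.88% of all genes in that fit.

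Of 41 genes of DNA damage repair, 0 were called (10 at an unadjusted p under 0.05, 1 in DESeq2), and the median was 0.30. Parp1, the sensor of strand breaks, had 146, 133 and 124 CPM on day 3 and 167, 187 and 194 CPM on day 5 (log2 fold change 0.45, adjusted p 0.0872), and Rad50, Chek2 and Palb2 had log2 fold changes of 0.39 (adjusted p 0.112), 0.30 (adjusted p 0.149) and 0.49 (adjusted p 0.151). Of 30 p53 targets, 27 had a negative log2 fold change, with a median of -0.27. Perp alone fell, beside 2.24% of all genes (log2 fold change -3.62, adjusted p 0.0173, from 59 counts in all on day 3 and 5 on day 5, called in 2 of the 6 fits, up to 0.0993 when cKO day 5 replicate 2 was left out). Cdkn1a, which encodes the cell cycle inhibitor p21, had 369, 331 and 279.6 CPM on day 3 and 372, 242 and 249.5 CPM on day 5 (log2 fold change -0.18, adjusted p 0.834), and its groups overlapped. Gdf15 had 102, 76.5 and 68.9 CPM on day 3 and 50.6, 20.7 and 24.5 CPM on day 5 (log2 fold change -1.37, adjusted p 0.0746, and -1.85, adjusted p 0.02 without cKO day 5 replicate 1), and Btg2 had a log2 fold change of -1.32 (adjusted p 0.109). With cKO day 5 replicate 1 left out, 5 of the 30 p53 targets fell, beside 3.88% of all genes in that fit.

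Among 31 tested genes of the BCL2 family and caspases, 1 fell, beside 2.24% of all genes, and the median was -0.14. This was Bcl2a1d, which protects from apoptosis (log2 fold change -1.45, adjusted p 0.0405). It shares sequence with its Bcl2a1 copies, its value is uncertain, and its call was lost in 4 of the 6 fits (adjusted p up to 0.249 when cKO day 3 replicate 1 was left out). Bcl2l11, the pro-apoptotic Bim, had 211, 151 and 188 CPM on day 3 and 174, 133 and 155 CPM on day 5 (log2 fold change -0.25, adjusted p 0.612). Bax, another pro-apoptotic member, had 72.2, 66.98 and 57.9 CPM on day 3 and 56.9, 45.3 and 50.7 CPM on day 5 (log2 fold change -0.37, adjusted p 0.106). The caspase Casp2 had a log2 fold change of 0.43 (adjusted p 0.137) and Bcl2l2 one of -0.34 (adjusted p 0.163).

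Interferon-stimulated genes split the day 5 libraries. In cKO day 5 replicate 1, all 68 tested members were higher than in each of the other 5 cKO libraries, whereas 63 of the 68 were lower in both replicate 2 and replicate 3 than in every day 3 library. Irf7, the factor that amplifies the interferon response (chr7:141262706-141266481), had 592, 352 and 448 CPM on day 3 and 1126, 133 and 166 CPM on day 5. Isg15, a ubiquitin-like modifier, had 113, 66.4 and 93.8 CPM on day 3 and 216, 17.8 and 23.1 CPM on day 5, and Oasl1, an Irf7 regulator, had 183, 174 and 237 CPM on day 3 and 351, 47.6 and 60.01 CPM on day 5. In all 3 genes, the day 5 values lay on both sides of those of day 3. The summed level was 10608, 8930.4 and 11464 CPM on day 3 and 19364, 5220 and 6071 CPM on day 5, and in WT cells 1173 to 1412 CPM and 3064, 1548 and 1551 CPM. There, too, replicate 1 of day 5 was the highest of the 6 WT libraries, for 62 of the 68 genes.

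With all libraries, 0 of 68 were called (0 at an unadjusted p under 0.05 in edgeR, 0 called in DESeq2), and the median log2 fold change was 0.03. The log2 fold change was 0.03 (adjusted p 0.99) for Irf7, -0.09 (adjusted p 0.977) for Isg15 and -0.37 (adjusted p 0.872) for Oasl1. Among genes of the antiviral response it was -0.10 (adjusted p 0.971) for Ifit1 and 0.49 (adjusted p 0.838) for Ifi44. For the chemokine Cxcl10 it was 0.00 (adjusted p 0.998). Parp10, Ifi27l2a, Slfn1 and Iigp1, the members with the smallest p, did not pass the test either, at -0.40 (adjusted p 0.614), 0.71 (adjusted p 0.633), -0.87 (adjusted p 0.638) and 0.85 (adjusted p 0.642). Without cKO day 5 replicate 1, the median was -0.95 and 4 of 68 fell, beside 3.88% of all genes in that fit. These were Parp10 (-1.15, adjusted p 0.0132), Slfn1 (-2.83, adjusted p 0.0328), Ifit1bl1 (-2.39, adjusted p 0.0352) and Isg20 (-2.45, adjusted p 0.0463). The last 2 of them are outside the rule for named genes and were chosen once their values were known. The remaining 5 fits without a cKO library called 0 members, and their medians ran from -0.04 (without cKO day 3 replicate 2) to 0.35 (without cKO day 5 replicate 2), so that the direction of the list's median turned with the library left out.

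The interferon-stimulated response element, bound by Irf factors among others, was searched as GAAANNGAA on both strands. Of the 53 listed genes with a promoter in the RefSeq table, 30 (56.6%) held it, against 9.76% of all genes there. A search of the bases before the gene start gave no window for Irf7, Oasl1 or Ifi44. A gene without a promoter in the table would also give none. Windows of 3 interferon genes named above are shown to give the element in its context, for Isg15 on chr4:156200865-156200894 (minus strand), Ifit1 on chr19:34640795-34640824 (plus strand, where the capitals are the reverse complement) and Cxcl10 on chr5:92349083-92349112 (minus strand).
Isg15: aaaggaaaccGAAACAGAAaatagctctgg
Ifit1: cagtctcagtTTCAGTTTCtcactgctgac
Cxcl10: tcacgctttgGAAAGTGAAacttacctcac

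Of 20 tested genes for interferon ligands, receptors and early signaling, 0 were called (5 at an unadjusted p under 0.05, 1 in DESeq2). Without cKO day 5 replicate 1, 5 of the 20 fell, beside 3.88% of all genes in that fit. Mavs, the adaptor of RNA sensors, had 28.2, 32.6 and 34.6 CPM on day 3 and 45.9, 41.00 and 41.5 CPM on day 5 (log2 fold change 0.43, adjusted p 0.0746). Socs3, an inhibitor of cytokine signaling, had 126, 22.99 and 27.1 CPM on day 3 and 19.4, 14.2 and 12.3 CPM on day 5 (log2 fold change -1.94, adjusted p 0.144), and day 3 replicate 1 was far above the rest. Tlr3, a sensor of double-stranded RNA, had 17.04, 13.8 and 22.9 CPM on day 3 and 60.3, 19.4 and 21.2 CPM on day 5 (log2 fold change 0.90, adjusted p 0.215), and Jak2 had a log2 fold change of -0.39 (adjusted p 0.202). Of 19 genes of MHC class I and peptide loading, 1 fell, beside 2.24% of all genes. This was H2-Q7, at 94.98, 48.2 and 62.7 CPM on day 3 and 26.4, 4.56 and 8.901 CPM on day 5 (log2 fold change -2.37 ± 0.547, adjusted p 0.0279). Its adjusted p reached 0.163 when cKO day 5 replicate 3 was left out, and it shares sequence with H2-Q6, which had 129.5, 63.8 and 80.03 CPM on day 3 and 58.5, 5.74 and 14.5 CPM on day 5 (log2 fold change -1.80, adjusted p 0.0929), so that both values are uncertain. Tap2 and H2-Q4 had log2 fold changes of -0.52 (adjusted p 0.168) and -0.74 (adjusted p 0.284). When cKO day 5 replicate 1 was left out, 5 of the 19 members fell, these 4 among them, beside 3.88% of all genes in that fit. The median moved from -0.22 to -0.77. None of 8 MHC class II genes was called (0 at an unadjusted p under 0.05 in edgeR, 0 in DESeq2), while the invariant chain gene Cd74 had 139.7, 184 and 171 CPM on day 3 and 95.05, 78.9 and 98.8 CPM on day 5 (log2 fold change -0.86, adjusted p 0.428). Ciita, the master regulator of these genes, had 8.55, 8.89 and 8.78 CPM on day 3 and 4.56, 3.78 and 4.71 CPM on day 5 (log2 fold change -1.01, adjusted p 0.485). H2-Eb1 and H2-Ab1 had log2 fold changes of -1.17 (adjusted p 0.312) and -1.01 (adjusted p 0.398).

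Transcripts of the mitochondrial genome were higher on day 5. All 7 tested of 13 protein-coding genes had a positive log2 fold change (median 1.09). Of these, mt-Nd1, mt-Nd2 and mt-Nd4, subunits of complex I, rose, beside 1.35% of all genes. The gene mt-Nd2 had 113, 138 and 292 CPM on day 3 and 351, 529 and 581 CPM on day 5 (log2 fold change 1.43 ± 0.333, adjusted p 0.0294), and mt-Nd1 had 328, 382 and 683 CPM on day 3 and 703, 1109 and 1207 CPM on day 5 (log2 fold change 1.12, adjusted p 0.0427). The cytochrome b gene mt-Cytb had 312, 370.2 and 726 CPM on day 3 and 651, 1145 and 1268 CPM on day 5 (log2 fold change 1.12, adjusted p 0.0609). Day 3 replicate 3 lay close to day 5 replicate 1 for these genes. The number that rose was 0, 0 and 5 without cKO day 3 replicates 1, 2 and 3, and 6, 0 and 0 without cKO day 5 replicates 1, 2 and 3. The other 6 had too few counts to be tested. The share of mitochondrial RNA can also move with RNA quality, of which the files hold no measure, and its part in this result was not tested.

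Of 35 genes of sterol and fatty acid synthesis, 0 were called (2 at an unadjusted p under 0.05, 0 in DESeq2), and Fads1, a desaturase, had 72.4, 66.02 and 73.3 CPM on day 3 and 113, 105 and 110 CPM on day 5 (log2 fold change 0.63, adjusted p 0.179). Elovl5, Dhcr7, Idi1 and Hmgcs1 had log2 fold changes of 0.50 (adjusted p 0.251), 0.46 (adjusted p 0.506), 0.53 (adjusted p 0.556) and 0.12 (adjusted p 0.925). Of 27 genes of glycolysis and the hypoxia response, 1 fell, beside 2.24% of all genes. This was Ddit4, an inhibitor of mTORC1, at 14.9, 16.5 and 12.7 CPM on day 3 and 7.34, 2.796 and 4.25 CPM on day 5 (log2 fold change -1.62 ± 0.306, adjusted p 0.0119). Its call was lost in 3 of the 6 fits, and the adjusted p reached 0.0871 when cKO day 5 replicate 3 was left out. Ero1l had 161, 223 and 198 CPM on day 3 and 119, 91.2 and 86.3 CPM on day 5 (log2 fold change -0.98, adjusted p 0.0719). Bnip3, a mitophagy receptor, had a log2 fold change of -0.73 (adjusted p 0.127) and Pfkm, a phosphofructokinase, one of 0.52 (adjusted p 0.0778).

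**Figure D5:**
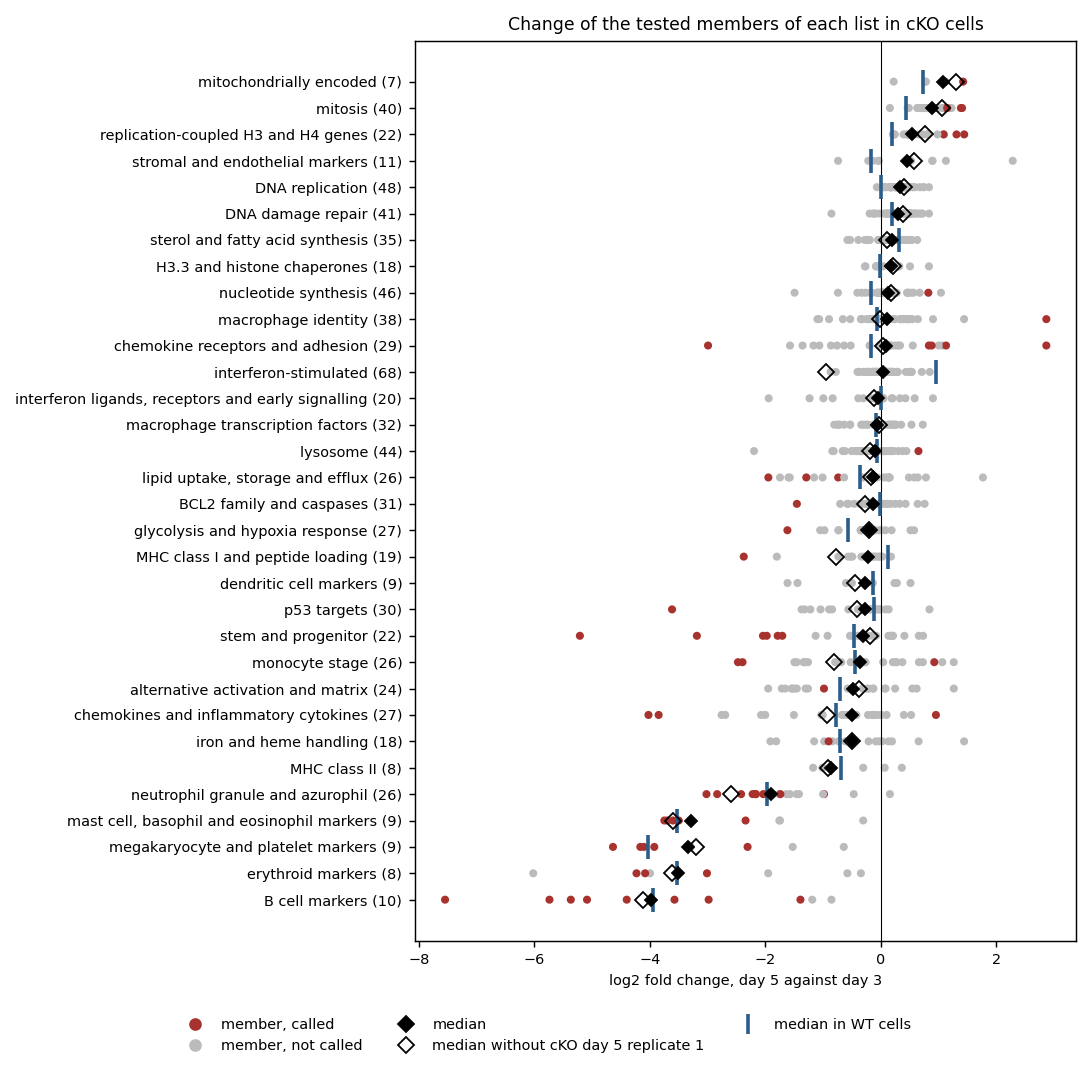
Log2 fold change between day 3 and day 5 in cKO cells of the tested members of 32 gene lists (points, dark where called), with the list's median, its median without cKO day 5 replicate 1 and its median in WT cells. The number of tested members is in parentheses, and lists with fewer than 7 are left out. Mitosis genes all lie above 0 (median 0.88), the lineage markers at the bottom lie below it, and the interferon list moves from 0.03 to -0.95 without that library.

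To ask whether the step differed between the libraries labelled cKO and WT, the same change was fitted in WT cells and the difference was tested. In WT cells 421 genes were called, 96 rising (0.602%) and 325 falling (2.04%), and the fits without 1 WT library called 51 to 303. Of the genes that fell in cKO cells, 164 also fell in WT cells, 45.8% of the cKO list and 50.5% of the WT list. Of those that rose, 27 were shared, 12.6% and 28.1%. Called or not, 208 of the 215 cKO rises and 340 of the 358 cKO falls had the same direction in WT cells. Of the WT calls, 87 of 96 rises and 321 of 325 falls had the same direction in cKO cells. In the test of the difference, 0 of 15955 genes passed in edgeR (0%), with 715 at an unadjusted p under 0.05. DESeq2 called 3, Plpp2, Jup and Ttc28, with differences of 0.74, -1.75 and -1.59 on the log2 scale (cKO change minus WT change, adjusted p 0.038, 0.038 and 0.0434). Without WT day 3 replicate 3, edgeR called Ahnak2 (-1.62, adjusted p 0.00314), and without cKO day 5 replicate 1 it called Ttc28 (-2.06, adjusted p 0.00165) and Nectin4 (-2.24, adjusted p 0.0342). These few genes are outside the rule for named genes and were chosen once their values were known.

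Set side by side, the list medians were -1.90 in cKO and -1.97 in WT cells for granule genes, and -3.99 and -3.94 for B cell markers. For mitosis genes they were 0.88 and 0.43, for DNA replication 0.34 and 0.01, and for replication-coupled histones 0.54 and 0.19. No gene of the mitosis, replication or histone lists had an unadjusted p under 0.05 for the difference. For interferon-stimulated genes the medians were 0.03 and 0.96, and 8 of 68 had an unadjusted p under 0.05 for the difference in edgeR. Replicate 1 of day 5 weighed on both medians. Without cKO day 5 replicate 1 the cKO median was -0.95. The WT sums on day 5 were 3064 CPM in replicate 1 and 1548 and 1551 CPM in replicates 2 and 3. For monocyte-stage genes they were -0.36 and -0.44, with 5 of 26 such genes, against 715 of all 15955. None of these was called. Summed over the mitosis list, cKO cells had 2415, 2306 and 2459 CPM on day 3 and 3293, 5129 and 5177 CPM on day 5, and WT cells 4103, 4202 and 2909 and 5526, 5189 and 5291 CPM. Granule genes summed to 2385, 3025 and 4251 and 838, 803 and 797 CPM in WT cells, and on day 5 cKO replicates 1 and 2 were above the WT range and replicate 3 within it. For Elane the day 5 values were 120, 34.3 and 49.8 CPM in cKO and 13.8, 16.1 and 20.7 CPM in WT cells, and its log2 fold change was -2.18 and -3.33 (unadjusted p for the difference 0.0757, not called).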

How the data were processed

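RNA was depleted of rRNA and prepared with NEBNext Ultra II kits, per the labels. The submitters' processing notes name cutadapt, STAR and mm10. The authors deposited raw STAR gene counts, and the annotation and strand setting are not given in the sources used here. All 55450 identifiers had a symbol in the reference annotation. The column that ignores strand was used, so that genes overlapping on opposite strands share reads. Rows that name no gene were left out (unmapped 8.23% to 11.5%, multimapping 8.78% to 9.90%, outside genes 8.91% to 15.0% and ambiguous 5.05% to 5.47% of reads in the 6 cKO libraries).

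The 18 libraries of the time course (both genotypes, days 3, 5 and 7) were fitted in one model with a group for each genotype and day. edgeR 4.0.16 (limma 3.58.1, R 4.3.3) was used with TMM scaling, filterByExpr (smallest count 10, smallest total 15), the quasi-likelihood F test and Benjamini-Hochberg adjustment over the 15955 genes tested, and calls were made at 0.05. The SE is the size of the log2 fold change divided by the square root of F. Alternatives were DESeq2 1.42.0, RLE size factors, other filters, the stranded column, models of the compared groups only, replicate blocks and fits without each library. Scripts were tested on simulated counts.

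The text names the targeted genes, the 10 largest rises and falls (called, mean log2 CPM of at least 3, groups apart), the 4 members of each of 34 lists with the smallest p, and a set of anchor genes, apart from a few that are not reported here. The members, lists and tests were chosen with earlier results of these data known. Gene coordinates are those of GRCm38, and promoters are RefSeq's, searched on both strands.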

Additional observations from a re-analysis of the deposited data

How the results depend on the processing

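With cKO day 5 set against day 3, 573 genes were called, and the number was 1094 in DESeq2, 908 with no filter on low counts, 1191 with only the 6 cKO libraries in the model (48.9% of them lower, against 62.5%) and 374 where a change also had to be 2-fold in size. RLE size factors, a mean of at least 1 CPM and the stranded column moved it by less than 1.5 times. Leaving out 1 library gave 49 (without cKO day 5 replicate 2) to 1016 (without cKO day 5 replicate 1). In WT cells, the 421 calls became 956 in DESeq2, 728 with no filter and 698 with only the WT libraries, and 51 to 303 with 1 library left out. For the difference between the genotypes, the 0 calls became 3 in DESeq2 and 0 to 2 with 1 library left out. The neutrophil granule list went from 14 calls to 23 with no filter, 9 with only the cKO libraries and 0 to 23 with 1 cKO library left out. The mitosis list went from 7 calls to 21 in DESeq2, 30 with no filter, 32 with only the cKO libraries and 0 to 21 with 1 library left out. The interferon list went from 0 calls to 0 to 4. The cause of these shifts was not tested.

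The labels do not say that a replicate number marks a shared batch or day. Between days 3 and 5, the correlations of the deviations of same-numbered replicates from their group means were 0.37, 0.23 and 0.09 in cKO and -0.04, 0.10 and -0.09 in WT cells. Between WT and cKO cells they were 0.42, 0.13 and 0.25 on day 3 and 0.12, -0.02 and 0.17 on day 5. Not every pair was over 0.1 between the days, and the pairing was not used in the main fit. A replicate block gave 870 calls in cKO and 643 in WT cells, and a block within genotype 872 in cKO cells and 23 in the granule list. Under these blocks Irf7 (-0.61 and -0.54), Ifi44 (-0.44 and -0.26) and Cxcl10 (-0.23 and -0.16) had the opposite sign to the fit without a block, none of them called.

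Every named gene whose sign turned under another setting was uncalled in both. Cxcl10 (0.00) was -0.012 with a mean of at least 1 CPM and -0.015 with the stranded column. With 1 cKO library left out, the lowest and highest log2 fold changes were -0.93 and 1.35 for Iigp1, -0.94 and 0.11 for Lck, -1.62 and 0.48 for Irf7, -2.14 and 0.40 for Isg15, and -1.67 and 0.34 for Ifit1. They were -1.86 and 0.062 for Oasl1, -1.58 and 0.98 for Ifi44, -0.93 and 0.35 for Cxcl10 and -0.11 and 0.071 for Ctsd. Of the 163 named genes, 66 were called and 12 of these in each of the 6 fits without a cKO library. Those without cKO day 5 replicate 1 lost 2 of the 66 calls, and those without cKO day 5 replicates 2 and 3 lost 54 and 54.

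At 15794452 to 19316661 counts a library, genes with a few counts on day 5, such as Mycn and Blk, have fold changes that depend on the prior count, and 3 libraries a group limit what the test can call.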
